A study of Mus musculus with 6 samples.

Results

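The classical histone deacetylases Hdac1 to Hdac10 were followed in the hypothalamus of diet-induced obese (DIO) mice, across every array probe that bears one of their names. A probe was a member where the gene name column of the scanner files held one of these symbols, which gave 23 probes among 56605 and 10 gene names among 37074. Total RNA of the hypothalamus was hybridized in 1 colour to 6 Agilent arrays, 3 labelled GSK-J4 and 3 labelled vehicle, each from a different mouse by the design text. All mice were male C57BL/6J DIO mice with no engineered allele named in the labels, put on a diet with 60 kcal% fat at 6 weeks of age for 16 weeks. GSK-J4, a compound that blocks the removal of methyl groups from histone H3 lysine 27, was given at 30 mg kg−1, and the control mice received the vehicle, 0 mg kg−1. The study's methods describe daily intraperitoneal injections over a longer course and collection at ZT 6 h, that is, 6 h after lights on, whereas the design text places these arrays on day 4. No array of lean or untreated mice was compared here, so every value below is for treated against vehicle-injected obese mice.

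Histone deacetylases remove acetyl groups from lysines of histone tails and other proteins, and deacetylated chromatin is generally less open to transcription. The class I enzymes are mostly nuclear and work inside corepressor complexes such as NuRD, Sin3 and CoREST. The class IIa enzymes Hdac4, Hdac5, Hdac7 and Hdac9 have little deacetylase activity of their own, bind MEF2 transcription factors, and leave the nucleus when calcium-dependent kinases phosphorylate them, whereas the class IIb enzymes Hdac6 and Hdac10 act mainly in the cytoplasm.

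Differences between probes of the same gene are described below, and the probes in question are 60 bases long. The 5 probes below are shown because they carry the only called rise (Hdac4), the differences within Hdac1 and Hdac9, the largest class I difference (Hdac2), and the only member not detected on any array (Hdac9 A_55_P2065074). They are printed 5′ to 3′ as the scanner files give them, with G and C in capitals, since the difference between groups moved with GC content across the array. At least 1 of the 3 forward reading frames of each was free of stop codons.
Hdac1 A_65_P09914: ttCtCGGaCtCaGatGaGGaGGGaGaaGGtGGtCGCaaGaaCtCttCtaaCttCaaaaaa
Hdac2 A_51_P116007: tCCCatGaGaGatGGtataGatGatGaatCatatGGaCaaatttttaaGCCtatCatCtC
Hdac4 A_55_P2815862: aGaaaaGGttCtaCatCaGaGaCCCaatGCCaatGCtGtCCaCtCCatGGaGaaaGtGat
Hdac9 A_51_P204031: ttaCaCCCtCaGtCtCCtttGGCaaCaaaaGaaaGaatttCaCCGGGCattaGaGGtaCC
Hdac9 A_55_P2065074: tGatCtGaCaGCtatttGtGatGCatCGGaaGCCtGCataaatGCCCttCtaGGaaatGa
On mm9, the build of the files, the Hdac1 probe lies at chr4:129194655-129194714 on the minus strand and the Hdac4 probe at chr1:93831190-93831249 on the minus strand. The Hdac9 probes lie at chr12:35074257-35074316 and chr12:34792084-34792143, both on the minus strand. The Hdac2 probe lies at chr10:36713455-36713589 on the plus strand, a span of 135 bases that is longer than the probe, so that its bases come from separate stretches of the genome. Exons and introns were not assigned here because no annotation of this build was used.

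The values are the deposited quantile normalized log2 signals. Probes were tested where either group had all 3 of its arrays well above background, which held for 34443 probes, here called kept, and for 22 of the 23 members. The arrays labelled GSK-J4 had fewer probes well above background than those labelled vehicle, 57.7% to 58.7% against 62.8% to 63.6%, and the groups were on separate slides and in separate scans, so treatment, slide and scan cannot be told apart. The tissue label was only partly borne by its markers, since 7 of 13 hypothalamic marker genes had a kept probe, among them Npy and Pomc, and Sim1, Nkx2-1 and Otp were well above background on 0 of the 6 arrays. Vehicle replicate 1 stood apart by markers of the choroid plexus, the epithelium that makes cerebrospinal fluid. The log2 of the summed signal of its 5 marker genes was 16.59 on vehicle replicate 1 against 11.40 and 11.54 on the other vehicle arrays, and 13.48, 11.37 and 12.37 on GSK-J4 replicates 1 to 3. Leaving out vehicle replicate 1 left 10 called probes on the whole array, and leaving out vehicle replicate 2 or 3 left 13 or 5. Leaving out GSK-J4 replicate 1, 2 or 3 left 973, 2075 or 1537 called higher and 1429, 2090 or 2481 lower. A call lost without a vehicle array therefore says little about its own probe. The Hdac differences are given below with and without vehicle replicate 1. Hypothalamic markers were higher with GSK-J4, since Npy (0.42) and Pomc (0.85) were called higher and the other kept genes were positive too, with a median of 0.42 over the 7. The summed log2 signal of the list was 11.90 to 12.06 on vehicle arrays and 12.39 to 12.54 on GSK-J4 arrays. The called probes had 50% GC (Npy) and 55% GC (Pomc), where all kept probes had median differences of 0.19 and 0.24. With the GC trend removed, Npy gave 0.21 (limma adjusted p = 0.12) and Pomc 0.61 (limma adjusted p = 0.045). Without vehicle replicate 1 they gave 0.39 and 0.78 and were not called. Neuron markers were mixed, as 2 of 5 genes had a probe called lower (Snap25 at −0.75 and Syt1 at −1.14), where 2546 of all 22117 genes had one. By the brightest probe, 3 of the 5 were positive with a median of 0.08, and their summed log2 signal was 17.36 to 17.39 on vehicle arrays and 17.24 to 17.50 on GSK-J4 arrays. Astrocyte markers were mixed too, as 1 of 5 genes had a probe called lower (Slc1a3 at −0.76) and 1 had probes called higher (Gja1 at 0.57). The brightest probes of these genes had the opposite signs, 0.17 for Slc1a3 and −0.27 for Gja1, and were not called. By the brightest probe, 2 of the 5 genes were positive with a median of −0.10. The summed log2 signals were 14.78 to 14.88 on vehicle arrays and 14.84 to 14.97 on GSK-J4 arrays. GSK-J4 replicate 3 also stood apart, with summed log2 signals of 13.49 for microglia markers and 14.81 for endothelium markers. The other arrays had 14.00 to 14.46 and 14.30 to 14.39. Of the microglia markers, Tmem119 and the brighter Csf1r probe were low on this array, while the dimmer Csf1r probe was not. Aif1, P2ry12 and the brighter Cx3cr1 probe were at their highest there. The part of these markers in the Hdac values was not tested beyond the fits with 1 array left out. In bulk tissue fewer cells of a type and less RNA per cell cannot be told apart.

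The comparison asked whether mRNA of the deacetylases differed after inhibition of a histone demethylase. Few of their probes passed the test. With a threshold of 0.05 on the limma adjusted p, 1 of the 22 probes was higher with GSK-J4 and 0 were lower, where 16.8% of all kept probes were called, 8.39% higher and 8.42% lower. The call was a probe of Hdac4. By unadjusted p of at most 0.05, 6 probes were up and 4 down, where 36.5% of all probes passed in either direction. At the thresholds of the study's methods, a fold of 1.5 or more with an unadjusted p of 0.05 or less, 0 probes were higher and 2 were lower, a probe of Hdac2 and another of Hdac4, where 4.79% and 7.86% of all probes were. The groups did not overlap on 7 probes with GSK-J4 above and on 4 with GSK-J4 below, where all kept probes gave 24.5% and 21.2%, or 45.6% in all. The log2 differences, GSK-J4 minus vehicle, ran from −0.83 to 0.87 with a median of 0.06, against a median of 0.02 over all kept probes. The medians were 0.10 for the 8 class I probes, 0.20 for the 11 kept class IIa probes and −0.01 for the 3 class IIb probes.

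Among the class I enzymes, Hdac1 is a catalytic subunit of NuRD, Sin3 and CoREST, and its 3 probes went in different directions. The first pair was lower with GSK-J4 without passing the test. Probe A_51_P507380 read 11.32, 11.22 and 11.18 on vehicle arrays and 10.85, 11.11 and 10.72 on GSK-J4 arrays. Probe A_55_P1970775, which lies further toward the 3′ end of the transcript, read 12.98, 12.74 and 12.68 against 12.37, 12.65 and 12.55. All 3 GSK-J4 arrays lay below all vehicle arrays on both, with differences of −0.34 ± 0.12 (SE, 3 arrays per group, limma adjusted p = 0.099) and −0.27 ± 0.12 (limma adjusted p = 0.16). The third probe, A_65_P09914, whose sequence is printed above, read 10.07, 9.97 and 9.73 on vehicle arrays and 10.38, 10.23 and 10.21 on GSK-J4 arrays. Here every GSK-J4 array lay above every vehicle array, with a difference of 0.35 ± 0.11 (limma adjusted p = 0.086). Against the mean of the other Hdac1 probes, its difference was 0.66 higher (limma diffSplice adjusted p = 0.011), a test in which 12.8% of 20235 probes passed. The Hdac1 probes differed from each other as a set (F test, limma diffSplice adjusted p = 0.019), as did those of 17.9% of the 7909 genes with several kept probes. Without vehicle replicate 1 the 3 differences were −0.31, −0.18 and 0.42, and the F test gave an adjusted p of 0.0496. The 35% GC of A_55_P1970775 was lower than the 43.3% of A_51_P507380 and the 45% of A_65_P09914, and with the GC trend removed its difference shrank to −0.08, while the others were −0.36 and 0.29 and the F test gave an adjusted p of 0.046. The difference of A_55_P1970775 was −0.08 under scaling to the 75th percentile as well. The F test was lost without vehicle replicate 2 (adjusted p = 0.089), vehicle replicate 3 (0.087) or GSK-J4 replicate 1 (0.099). It was also lost with the replicate number as a block (0.056) and with that block and the GC trend removed (0.097). The diffSplice contrast of A_65_P09914 passed in 9 of 13 alternatives.

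Hdac2, the close paralog of Hdac1 in the same complexes, was measured by 1 probe, A_51_P116007. It read 6.87, 6.93 and 6.73 on vehicle arrays and 6.44, 6.55 and 5.77 on GSK-J4 arrays. All GSK-J4 arrays were below all vehicle arrays, with GSK-J4 replicate 3 the lowest by far. The difference was −0.59 ± 0.22, a 1.51-fold lower mean, and did not pass after adjustment (limma adjusted p = 0.11). It was −0.58 without vehicle replicate 1 and −0.35 without GSK-J4 replicate 3, so that this array supplied much of its size.

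Hdac3 is the catalytic subunit of another corepressor complex, and its 2 probes were both slightly higher with GSK-J4. Probe A_51_P483089 read 10.39, 10.37 and 10.39 on vehicle arrays and 10.63, 10.53 and 10.64 on GSK-J4 arrays, with no overlap. The difference of 0.22 ± 0.07 missed the threshold (limma adjusted p = 0.077) and passed it under scaling to the 75th percentile (adjusted p = 0.035) and in a t-test with equal variances (adjusted p = 0.044). The other probe, A_65_P16459, near the 5′ end of the transcript, gave 0.09 ± 0.09 (limma adjusted p = 0.51), and the probes did not pass the test against each other (limma diffSplice adjusted p = 0.46). These differences were 0.23 and 0.08 without vehicle replicate 1.

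Hdac8, a class I enzyme that is not known as a stable subunit of the large corepressors, showed the same size of shift. Probe A_52_P464062 read 7.56, 7.58 and 7.62 on vehicle arrays and 7.85, 7.83 and 7.75 on GSK-J4 arrays, which did not overlap. Its difference was 0.23 ± 0.07 (limma adjusted p = 0.072), and it passed only in the t-test with equal variances (adjusted p = 0.044) among the alternatives run. The probe near the 5′ end, A_51_P481191, gave 0.11 ± 0.10 (limma adjusted p = 0.48). Leaving out vehicle replicate 1 gave 0.22 and 0.11.

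**Figure D1:**
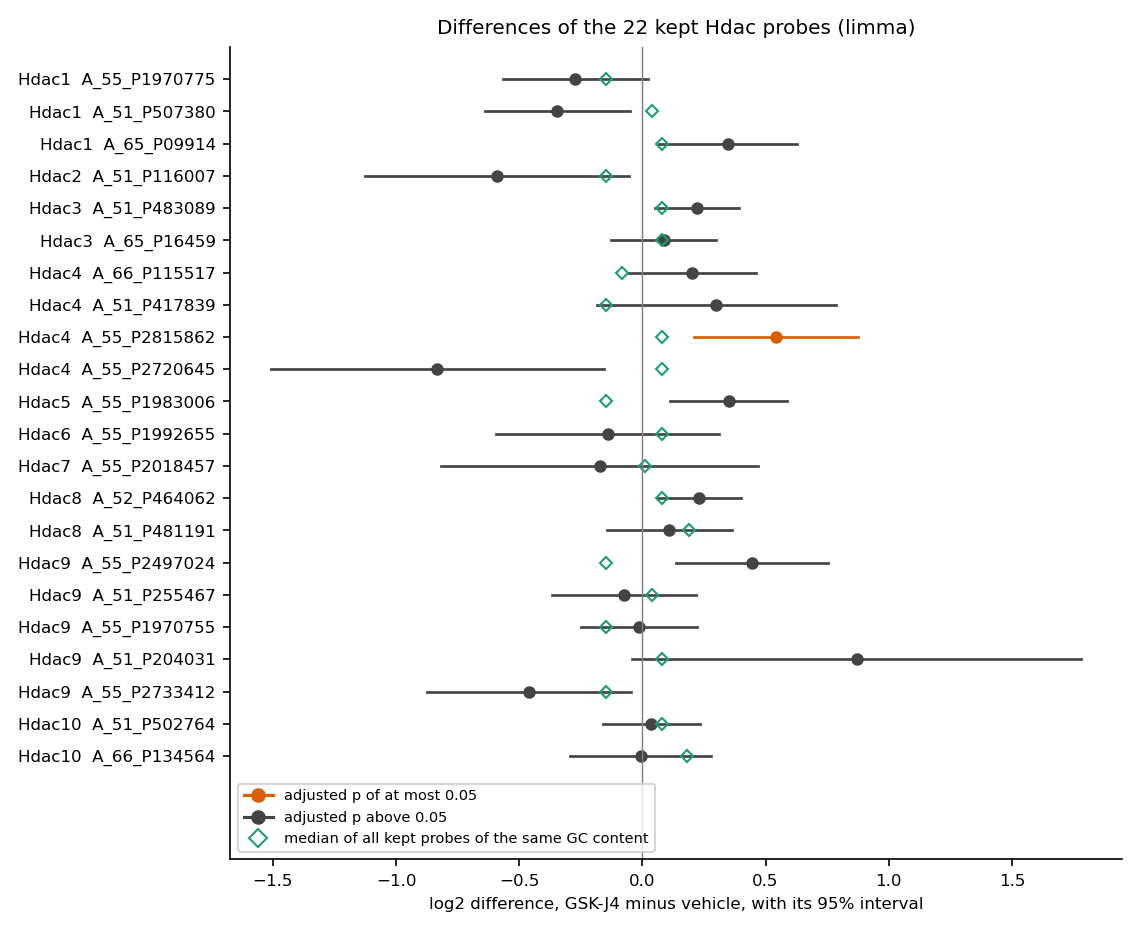
Points are the log2 differences, GSK-J4 minus vehicle, of the 22 kept Hdac probes, lines are their 95% intervals from limma, and green diamonds are the median difference of all kept probes of the same GC content. Only the Hdac4 probe A_55_P2815862, in orange, has an adjusted p of at most 0.05, with an interval of 0.21 to 0.87.

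Hdac4 is a class IIa enzyme abundant in neurons, and it held the single call among the Hdac probes as well as one of the largest differences in the opposite direction. Probe A_55_P2815862 read 8.52, 8.83 and 8.96 on vehicle arrays and 9.25, 9.24 and 9.44 on GSK-J4 arrays. Every GSK-J4 array was above every vehicle array, and vehicle replicate 1 was the lowest. The probe rose by 0.54 ± 0.13 (SE, 95% interval 0.21 to 0.87, limma adjusted p = 0.047), a 1.46-fold higher mean. The call was narrow, since it ended when any 1 of the 6 arrays was left out, with differences of 0.42 to 0.64 and adjusted p-values of 0.080 to 0.12, the 0.42 being without vehicle replicate 1 (adjusted p = 0.089). Without a vehicle array few probes of the whole array were called either. It also ended with the GC trend removed (0.49, adjusted p = 0.072), and it passed in 5 of 18 alternatives. Probe A_51_P417839, on the same transcript nearer its 3′ end, read 9.67, 10.10 and 10.01 against 10.51, 10.28 and 9.89. These groups overlapped, since GSK-J4 replicate 3 lay below 2 of the vehicle arrays, and the difference was 0.30 ± 0.20 (limma adjusted p = 0.32). The probe furthest along, A_66_P115517, gave 0.20 ± 0.11 (limma adjusted p = 0.22). Without vehicle replicate 1, the lowest array on both, these differences were 0.17 and 0.11.

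The fourth Hdac4 probe went the other way. A_55_P2720645 is assigned in the files to a separate Ensembl transcript and lies at chr1:93885742-93885801 (mm9), far from the other Hdac4 probes, which lie between 93825715 and 93831249. It read 5.83, 5.56 and 5.50 on vehicle arrays and 4.75, 5.35 and 4.29 on GSK-J4 arrays, of which replicate 3 was not well above background. All GSK-J4 arrays lay below all vehicle arrays, with a difference of −0.83 ± 0.27, or a mean 1.78-fold lower that includes the dim array (limma adjusted p = 0.088). It was −0.25 with normexp correction, −0.58 without GSK-J4 replicate 3, −0.73 without vehicle replicate 1 and −1.11 without GSK-J4 replicate 2, where it passed (adjusted p = 0.033). Relative to the other Hdac4 probes its difference was lower by 1.18 (limma diffSplice adjusted p = 0.0040). This contrast passed in all 12 alternatives in which the probe could be tested, with values from −1.46 to −0.54 and adjusted p-values of at most 0.044. The smallest, −0.54, came with normexp background correction, and the value without vehicle replicate 1 was −0.97. The Hdac4 probes differed as a set (F test, limma diffSplice adjusted p = 0.011), but not when only probes well above background on all 6 arrays were used, which removes this probe (adjusted p = 0.53), nor without vehicle replicate 1 (0.099), vehicle replicate 2 (0.066) or GSK-J4 replicate 1 (0.059).

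Hdac5, the class IIa enzyme that has been linked to leptin signalling in the mouse hypothalamus, was represented by 1 bright probe, A_55_P1983006. It read 13.98, 13.99 and 13.98 on vehicle arrays and 14.39, 14.16 and 14.45 on GSK-J4 arrays. The vehicle arrays hardly differed from each other, and all GSK-J4 arrays lay above them. The difference was 0.35 ± 0.10 (95% interval 0.11 to 0.59), and its limma adjusted p of 0.058 just missed the threshold. All kept probes with the same GC content, 35%, had a median difference of −0.15. With the GC trend removed the Hdac5 difference was 0.54 (adjusted p = 0.036), and with scaling to the 75th percentile it was 0.66 (adjusted p = 0.015). It passed in 6 of 19 alternatives and was positive in all of them, and it was 0.35 (adjusted p = 0.13) without vehicle replicate 1. Hdac7 (A_55_P2018457), better known from endothelium and thymus, read 9.95, 9.89 and 10.22 on vehicle arrays and 9.48, 9.65 and 10.42 on GSK-J4 arrays, so that the GSK-J4 arrays lay on both sides of the vehicle arrays. The difference of −0.17 ± 0.26 (limma adjusted p = 0.66) depended on single arrays, as it was −0.46 without GSK-J4 replicate 3, 0.01 without GSK-J4 replicate 1 and −0.21 without vehicle replicate 1.

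Hdac9 had 6 probes, the most of any member, and they are assigned to distinct transcripts. The gene is known to give a full-length enzyme and shorter forms, among them HDRP (or Mitr), which lacks the catalytic domain. Which form each probe reads was not assigned here. The probe A_55_P2065074, printed above, was well above background on 0 of the 6 arrays and was not tested. Both probes further along are assigned to the same transcript. Probe A_55_P2497024 read 8.47, 8.41 and 8.29 on vehicle arrays and 9.06, 8.66 and 8.79 on GSK-J4 arrays, without overlap. The difference was 0.45 ± 0.13 (limma adjusted p = 0.062), and it passed with the GC trend removed (0.64, adjusted p = 0.039) and with normexp correction (0.41, adjusted p = 0.036). Probe A_51_P255467, with a difference of −0.07 ± 0.12 (limma adjusted p = 0.68), showed no such shift on overlapping groups. Without vehicle replicate 1 the differences of this pair were 0.49 and −0.08.

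The 2 probes assigned to the other Hdac9 RefSeq transcript also parted. Probe A_51_P204031, printed above, read 7.15, 7.19 and 6.90 on vehicle arrays and 8.76, 7.81 and 7.28 on GSK-J4 arrays. All GSK-J4 arrays were above all vehicle arrays, but they spanned more than a log2 unit. The difference was 0.87 ± 0.37, the largest positive value among the members, and did not pass (limma adjusted p = 0.15). It was 0.47 without GSK-J4 replicate 1, 1.20 without GSK-J4 replicate 3 and 0.90 without vehicle replicate 1. Probe A_55_P1970755 read 9.60, 9.56 and 9.69 against 9.75, 9.48 and 9.58, with a difference of −0.01 ± 0.10 (limma adjusted p = 0.93). The last probe, A_55_P2733412, assigned to a cDNA clone, read 8.04, 7.57 and 7.77 against 7.17, 7.24 and 7.59, a difference of −0.46 ± 0.17 (limma adjusted p = 0.11) on groups that overlapped narrowly. Without vehicle replicate 1 the difference of A_55_P1970755 was −0.02 and that of A_55_P2733412 −0.34. Against the other Hdac9 probes, A_51_P204031 was higher by 0.90 (limma diffSplice adjusted p = 0.021) and A_55_P2733412 lower by 0.77 (adjusted p = 0.045), and the F test for the gene gave an adjusted p of 0.029. The F test was lost without vehicle replicate 1 (adjusted p = 0.16), vehicle replicate 2 (0.10), vehicle replicate 3 (0.19), GSK-J4 replicate 1 (0.069) or GSK-J4 replicate 2 (0.10), and with the GC trend removed (0.067). It was also lost with normexp correction (0.057) and with the replicate number as a block and the GC trend removed (0.082). The diffSplice contrasts of A_51_P204031 and A_55_P2733412 passed in 5 and 4 of 13 alternatives.

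**Figure D2:**
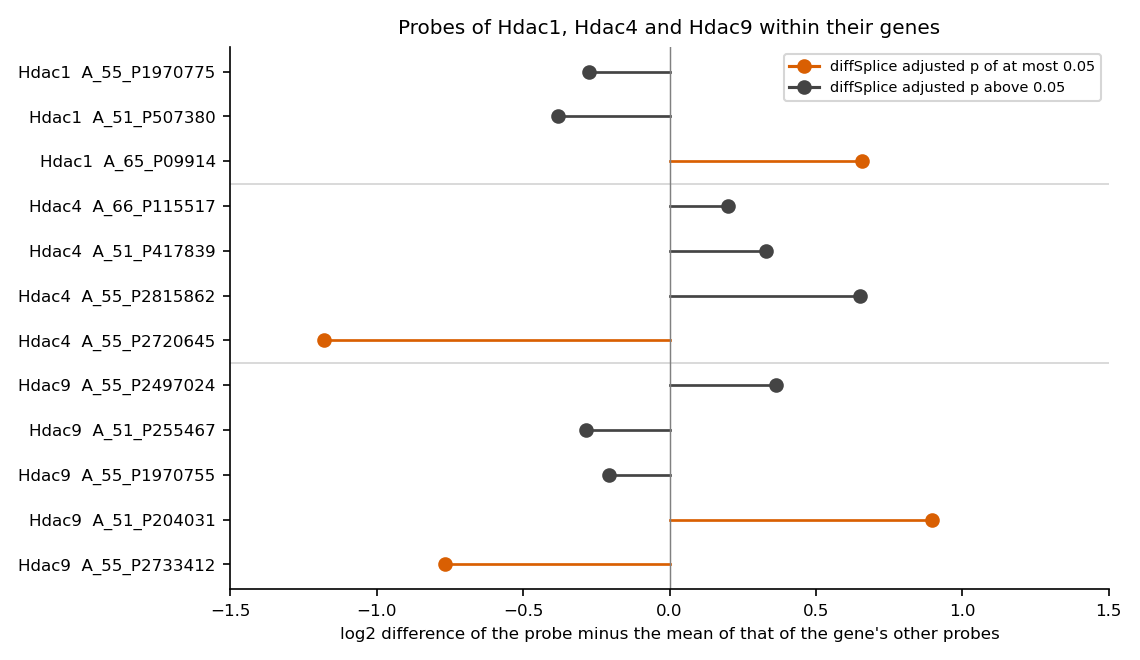
The x axis is the log2 difference (GSK-J4 minus vehicle) of a probe minus the mean difference of the gene's other kept probes, for Hdac1, Hdac4 and Hdac9. The 4 orange probes have a limma diffSplice adjusted p of at most 0.05, and the longest line is that of Hdac4 A_55_P2720645 at −1.18.

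Across the 6 genes with several kept probes, 4 of 18 probes differed from the rest of their gene in the diffSplice test, where 12.8% of all probes tested did, and 3 of 6 genes passed the F test, where 17.9% of all genes did. All 4 belonged to Hdac1, Hdac4 and Hdac9. The probes of Hdac3, Hdac8 and Hdac10 did not pass this test, with adjusted p-values of 0.49 to 0.89. The test pools the spread of a gene's probes, so a probe that varies more between mice than its neighbours, such as Hdac9 A_51_P204031, is measured against a smaller spread than its own.

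The class IIb enzymes gave no call. Hdac6 (A_55_P1992655), the cytoplasmic deacetylase of tubulin, read 11.59, 11.45 and 11.47 on vehicle arrays and 10.97, 11.47 and 11.65 on GSK-J4 arrays. The GSK-J4 arrays spanned the vehicle arrays on both sides, and the difference was −0.14 ± 0.18 (95% interval −0.59 to 0.31, limma adjusted p = 0.61). It was −0.10 without vehicle replicate 1 and turned to 0.06 without GSK-J4 replicate 1. Hdac10, a polyamine deacetylase, was steadier, with differences of 0.04 ± 0.08 (95% interval −0.16 to 0.23) and −0.01 ± 0.12 (95% interval −0.29 to 0.28) on its probes A_51_P502764 and A_66_P134564 (limma adjusted p = 0.77 and 0.97). They were −0.01 and 0.09 without vehicle replicate 1. These intervals bound the Hdac10 change more tightly than that of Hdac6 or Hdac7.

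GC content of the probe moved with the difference between groups over the whole array. The median difference of all kept probes was −0.15 for the 7292 probes with 35% GC and 0.08 for the 7956 with 45% GC. Of the members, the Hdac2 probe, Hdac1 A_55_P1970775, Hdac9 A_55_P2733412 and, near 0, Hdac9 A_55_P1970755 had 35% GC, and their differences were of the same sign as that median. Hdac4 A_51_P417839, Hdac5 and Hdac9 A_55_P2497024 also had 35% GC and differences of the opposite sign. The opposed Hdac4 probes A_55_P2815862 and A_55_P2720645 both had 45% GC. With the GC trend removed within each array, 2 Hdac probes were called higher (Hdac5 and Hdac9 A_55_P2497024) and 0 lower, and 2 of 18 probes, Hdac1 A_65_P09914 and Hdac4 A_55_P2720645, still differed from the rest of their gene.

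**Figure D3:**
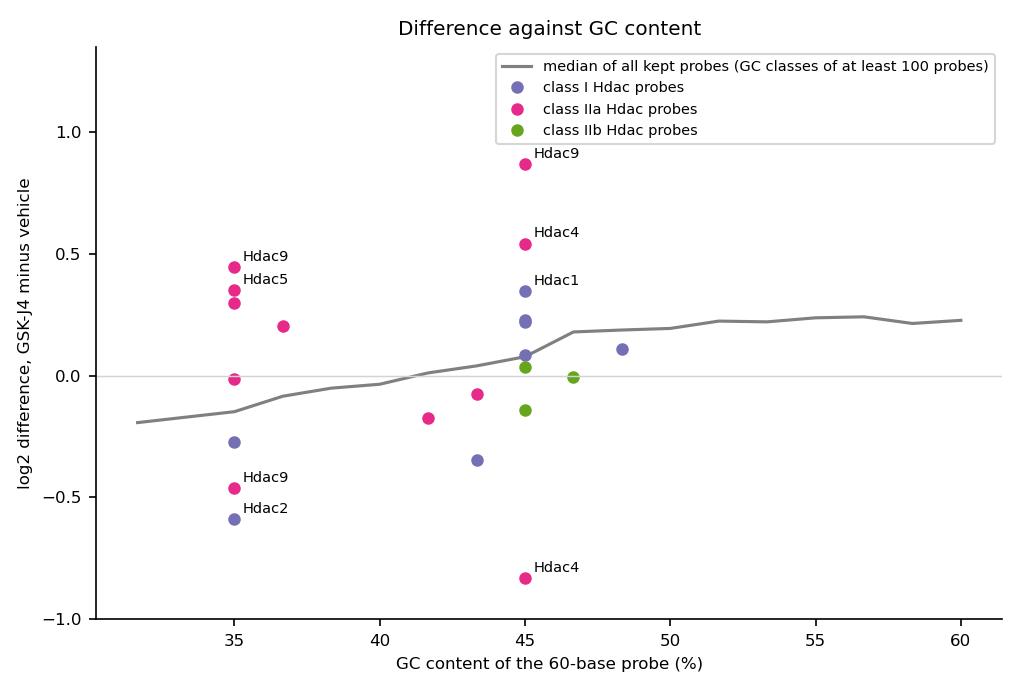
The x axis is the GC content of a 60-base probe in percent and the y axis the log2 difference, GSK-J4 minus vehicle. Points are the kept Hdac probes coloured by class, with genes of the larger differences named, and the grey line is the median of all kept probes, which runs from −0.15 at 35% GC to 0.08 at 45% GC.

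The partners and opponents of the deacetylases were described from lists of their subunits, beside all genes with a kept probe, of which 2681 had a probe called higher and 2546 one called lower. Among 9 genes of the CoREST complex, in which Hdac1 and Hdac2 work with a lysine demethylase, 4 had a probe called higher and 0 lower. Hmg20b rose by 1.05 ± 0.11 (limma adjusted p = 0.014), Phf21a by 0.67, Zmym2 by 0.52 and Zmym3 by 0.37, each on 1 probe. The median of the CoREST genes by their brightest probe was nevertheless −0.14, and the called probes were not the brightest of their genes. The brightest probes gave −0.16 for Zmym2, −0.26 for Zmym3 and, in the direction of the called probe, 0.22 for Phf21a. They were not called. The brightest Hmg20b probe gave −0.02 ± 0.50. Its limma interval of −1.25 to 1.21 includes the 1.05 of the called probe, so it cannot show whether the probes differed.

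Of 15 Sin3 genes, 2 had a probe called higher and 3 one called lower. Fam60a, a subunit of the Sin3 complex, fell from a mean log2 signal of 8.34 to 6.84 on its brightest probe (SE of the difference 0.14, limma adjusted p = 0.013). A probe of Arid4b fell by 0.85 and 1 of Phf12 by 0.69, whereas 1 of Brms1 rose by 0.34. The brightest probes of Arid4b and Phf12 gave 0.05 and −0.04 and were not called, while other Arid4b probes were called lower. In the NuRD complex 2 of 13 genes had a probe called higher, the chromatin remodeller Chd5 (0.78) and Mta3 (0.35). The histone chaperone Rbbp7 had 1 called lower at −0.28. Other kept Chd5 probes gave 0.08, 0.11 and 0.26 and were not called.

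Among 13 partners and kinases of the class IIa enzymes, 2 had a probe called higher and 1 one called lower. A probe of the transcription factor Mef2d, a class IIa binding partner, rose by 0.69 ± 0.13 (limma adjusted p = 0.026) and 1 of the kinase Mark2 by 0.34. The brightest Mef2d probe gave 0.11 and was not called. A dim probe of the calcium-dependent kinase Camk2a fell by 0.90 ± 0.07 (limma adjusted p = 0.012), from a mean log2 signal of 6.53 to 5.63. Its 2 other kept probes were brighter and not called, with differences of −0.35 on the brightest and 0.19. Of 10 lysine acetyltransferases, which add the acetyl groups that deacetylases remove, 0 were called higher and 1, Kat6b, fell by 0.98 ± 0.16 (limma adjusted p = 0.021). Hdac11, the remaining classical deacetylase and a member of none of these classes, rose on 1 of its 2 probes by 0.31 (limma adjusted p = 0.043), and the other gave 0.32 (adjusted p = 0.057).

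None of these partner calls held at an adjusted p of 0.05 without vehicle replicate 1, where 0 genes of these lists were called. Only 2 probes of the whole array were called higher and 8 lower in that fit, so this loss says little about these genes. The differences were close in size (Hmg20b 1.14, Fam60a −1.47, Camk2a −0.87, Mef2d 0.73). With the GC trend removed, Hmg20b, Zmym2, Fam60a, Arid4b, Phf12, Camk2a and Kat6b were still called. The calls of Phf21a (0.43, adjusted p = 0.052), Chd5 (0.53), Mta3 (0.29), Sap30l (0.26), Mef2d (0.44) and Hdac11 (0.26) were lost, as were those of Zmym3 (0.13), Rbbp7 (−0.09), Brms1 (0.13) and Mark2 (0.15), whose differences became much smaller. The same fit also called Rcor2 (0.48) and Sin3a (0.35), which did not pass without that step and are named here after their values were seen.

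**Figure D4:**
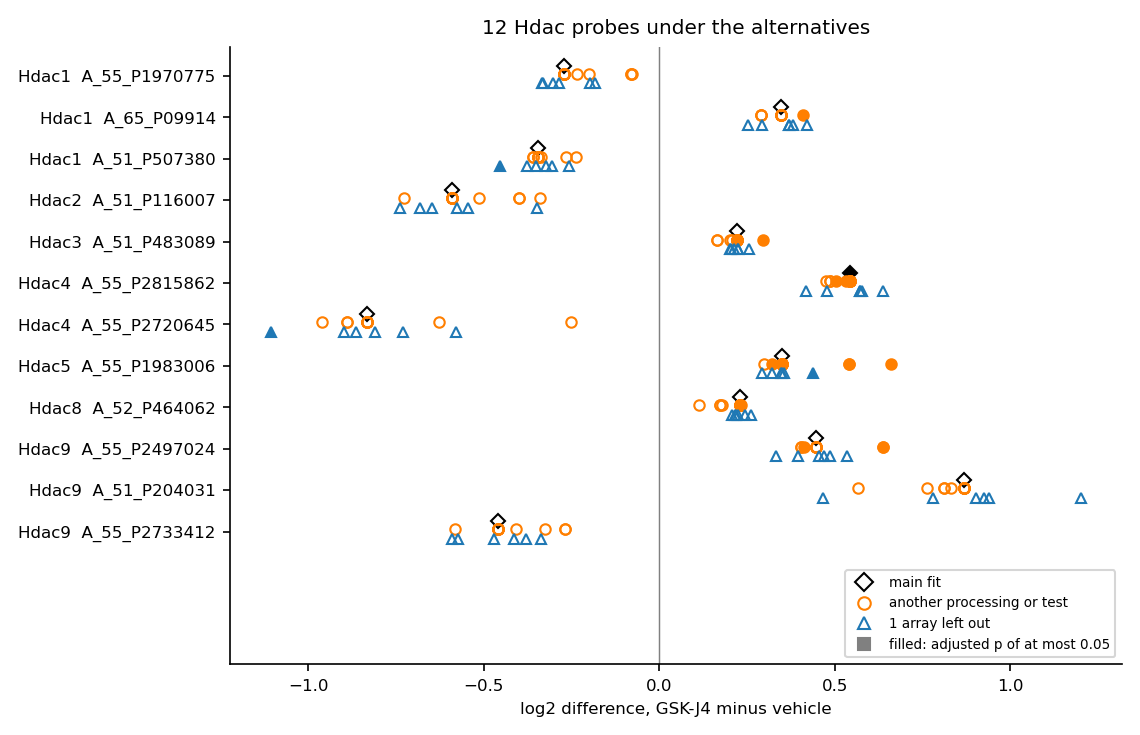
The x axis is the log2 difference, GSK-J4 minus vehicle, of 12 Hdac probes, chosen for non-overlapping groups or a difference within their gene, in the main fit (diamonds), under other processing or tests (circles) and with 1 array left out (triangles). Filled symbols have an adjusted p of at most 0.05. No symbol crosses 0, which the choice of probes with non-overlapping groups largely fixed. Filled symbols are few or none on every probe, with 6 alternatives for Hdac5 and 5 for Hdac4 A_55_P2815862.

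As the plot of the alternatives shows, the directions of these 12 probes held under the settings tried, while the calls did not. The choice of the probes largely fixed these directions. Where groups do not overlap, leaving out 1 array cannot change the sign, and the other tests reuse the same difference of means. The count of Hdac probes called higher was 4 with scaling to the 75th percentile (Hdac1 A_65_P09914, Hdac3 A_51_P483089, Hdac4 A_55_P2815862 and Hdac5), 3 with normexp correction and 0 with the methods' t-test or with any 1 vehicle array left out. A lower call appeared only without GSK-J4 replicate 2, on Hdac1 A_51_P507380 (−0.45, adjusted p = 0.048) and Hdac4 A_55_P2720645 (−1.11, adjusted p = 0.033). For each probe with non-overlapping groups the two-sided p of the exact permutation test over arrays was 0.1, the smallest that this design allows.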

How the data were processed

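The 6 arrays were assigned to groups by their sample titles. The authors scanned the arrays and deposited, per the file headers, Feature Extraction (10.7.1.1) signal intensities and flags of each spot, and a series table, with values on the log2 scale, described as quantile normalized in GeneSpring. The correlation of each deposited log2 column with its own array's intensities was at least 0.999, and the sorted values of the columns differed by at most 0.00424. Probe coordinates are on mm9.

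The deposited log2 values were compared probe by probe with lmFit and eBayes in limma 3.58.1 (R 4.3.3, data.table (1.17.8)), two-sided and without covariates, with Benjamini-Hochberg adjustment of the p-values over 34443 kept probes. Probes of a gene were compared with diffSplice. Control probes were left out, and no member spot was flagged or saturated. The number of arrays, 3 per group, limits the precision. All Hdac probes are named, and of each other list at most the 4 largest called differences on probes well above background on all 6 arrays. One list of partner genes is not reported here. The members and lists were chosen with earlier results of these data known. Same-numbered arrays did not deviate together (correlations 0.007, 0.026 and 0.081), so the numbers were not taken as pairs. The fits were tested on simulated data. Alternatives covered the signal source, scaling, background correction, GC content (lowess span 0.3), filters, variance models, t-tests, the replicate number as a block, and leaving out each array. ChIP-Seq and other experiments of the study were not analysed here.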

Additional observations from a re-analysis of the deposited data

How the results depend on the processing

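All probes and the Hdac probes are given together for each setting. Against 2889 probes higher and 2899 lower over the array, scaling to the 75th percentile called 5033 higher, removal of the GC trend 1700, no filter 1793, the t-test with equal variances 1831 (1484 lower) and the methods' t-test 56 (37 lower), and 1 probe per gene called 1723 lower. The replicate block, with or without removal of the GC trend, called 0 in either direction. Leaving out 1 array gave 1 to 2075 probes higher and 4 to 2481 lower.

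Against 1 Hdac probe called higher, 4 were called with scaling to the 75th percentile, 3 with normexp, and 2 with the GC trend removed, with detection on all 6 arrays, with an intensity trend and with equal variances. It was 0 with no filter, with 1 probe per gene, with array weights, with the methods' t-test and with the replicate block, with or without removal of the GC trend. Leaving out 1 array gave 0 to 1 higher and 0 to 2 lower. At the thresholds of the methods, 1 Hdac probe in place of 0 was higher with the 75th percentile, the GC trend removed, an intensity trend, array weights and both block fits. In place of 2 lower, the count was 1 with the GC trend removed, detection on all 6 arrays, 1 probe per gene, array weights and the block with the GC trend removed, and 0 with normexp and with either t-test. Leaving out 1 array gave 0 to 1 higher and 0 to 2 lower.

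In place of 4 Hdac probes that differed from the rest of their gene, 2 did with the GC trend removed and 1 with the replicate block and the GC trend removed, and 1 to 4 with 1 array left out. Of 405 values of single Hdac probes under the alternatives, 387 kept the sign, and the 18 that did not were of probes with differences under 0.2 in size. Lists of partners were recomputed with the scanner signals, the GC trend removed and without vehicle replicate 1, a choice made after seeing the data. The 75th percentile moved the share of higher among called probes from 49.9% to 58%. Signal over background on the arrays labelled GSK-J4 limits what can be said of the dim Hdac4, Hdac9 and Hdac2 probes. The causes of these shifts were not tested.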
